A study of Mus musculus with 28 samples.

Results

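The 6 genes described are Nodal, Tdgf1, Lefty1, Lefty2, Smad7 and Skil, which encode a NODAL ligand, its co-receptor and 4 inhibitors of the pathway. They were taken by symbol from a CPM table (counts scaled to a common library total) of 30386 genes, and 6 of 6 passed the filter on low counts that left 11080 genes for testing. The cells were E14 mouse embryonic stem cells, a single established line, so 1 genetic background stands behind every group. All cells were grown on gelatin in N2B27, a defined serum-free medium. The control group stayed in 2iL, which adds the GSK3 inhibitor CHIR99021, the MEK inhibitor PD0325901 and the cytokine LIF. In 4 further groups 2iL had been withdrawn for 24, 48, 96 or 120 h, with N2B27 alone in its place. The last 2 groups, written 48 h + 2iL and 96 h + 2iL, had 2iL withdrawn for 48 or 96 h and then returned for 24 h. Each of the 7 groups held 4 libraries, 1 from each of 4 experiments numbered in the sample titles. The 120 h group comes from the titles and treatment labels, since the written protocol names withdrawal times up to 96 h.

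NODAL is a secreted ligand of the TGF-beta family that acts through activin receptors and needs the membrane-anchored co-receptor TDGF1, also called Cripto. The receptors phosphorylate SMAD2 and SMAD3, which enter the nucleus with SMAD4 and act with partners such as FOXH1. Among the genes that the pathway is known to switch on are its own inhibitors, the secreted LEFTY proteins and the intracellular proteins SMAD7 and SKIL. Mouse embryonic stem cells are known to make NODAL and to carry active SMAD2, and the LEFTY genes are used as readouts of that activity.

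Nodal lies on chromosome 10 (chr10:61417972-61425338, + strand) and Tdgf1 on chromosome 9 (chr9:110939603-110946158, - strand). Lefty2 (chr1:180893108-180899103, + strand) and Lefty1 (chr1:180935022-180938400, + strand) lie on chromosome 1 with 35918 bases between them. Skil lies on chromosome 3 (chr3:31095058-31122577, + strand). Positions are from the GENCODE M21 annotation of GRCm38 (mm10), and the genes are protein-coding. RefSeq promoters of build GRCm38.p6 were used for 2 of the 6, Nodal and Tdgf1, and motif matches in the rest of the 6 are not given. The levels of these 2 genes followed each other most closely among the 6. The 250 bases before each start are shown 5′ to 3′ on the gene's strand because they are the stretch in which the pathway's motifs were searched. Capitals mark a match to the SMAD box CAGAC. The Nodal stretch is chr10:61417722-61417971 on the + strand, and the Tdgf1 stretch is chr9:110946159-110946408 on the - strand.
Nodal: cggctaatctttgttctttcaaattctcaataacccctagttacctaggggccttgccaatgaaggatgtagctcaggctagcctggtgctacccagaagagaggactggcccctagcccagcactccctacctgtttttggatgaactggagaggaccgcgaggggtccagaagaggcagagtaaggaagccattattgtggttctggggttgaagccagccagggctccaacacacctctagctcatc
Tdgf1: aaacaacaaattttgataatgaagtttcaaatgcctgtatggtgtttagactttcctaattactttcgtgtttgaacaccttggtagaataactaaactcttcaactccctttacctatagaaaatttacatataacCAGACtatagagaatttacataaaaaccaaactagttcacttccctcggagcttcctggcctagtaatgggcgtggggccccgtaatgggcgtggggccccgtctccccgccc
Matches were sought on both strands. The motifs of the pathway itself were the SMAD box CAGAC and the FOXH1 motif AATNCACA. Also searched were CTTTGA, which TCF and LEF proteins bind, and the octamer ATGCAAAT of OCT factors. The last was the TATA box, spelled TATAAA, and no match overlapped another. Tdgf1 held 1 CAGAC, 113 bases before the start, and no other match, and Nodal held none of the 5. Over 32851 promoter windows of 250 bases, 42.19% held CAGAC, 3.184% held AATNCACA, 13.83% held CTTTGA, 1.601% held ATGCAAAT and 12.37% held TATAAA. A match describes letters and not a bound site.

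Libraries held 1554830 to 2828694 counts assigned to genes, and 13021 to 14923 genes had at least 1 count. The summed level of 7 embryonic stem cell markers other than Tdgf1 was 1131 to 1515 CPM in 2iL, 306 to 442 CPM at 120 h and 419 to 574 CPM in 96 h + 2iL. Sox2 made up most of the sums at 120 h and in 96 h + 2iL, with means of 271 and 360 CPM against 573 CPM in 2iL. Zfp42 averaged 238 CPM in 2iL, 7.27 CPM at 120 h and 40.7 CPM in 96 h + 2iL. Esrrb averaged 194, 6.21 and 35.9 CPM in these groups, and Utf1 63.1, 81.9 and 14.1 CPM. Experiments 3 and 4 stood apart in 96 h + 2iL. There, 8 neural progenitor markers summed to 808 CPM in experiment 3 and 462 CPM in experiment 4, against 164 CPM in experiment 1 and 229 CPM in experiment 2. In the same group, 8 mesendoderm markers summed to 39.2 and 38.3 CPM in experiments 3 and 4, against 126 and 161 CPM in experiments 1 and 2. In 2iL these lists summed to 13.8 to 23.9 CPM (neural) and 24.05 to 35.05 CPM (mesendoderm). T, 1 of the mesendoderm markers, averaged 19.4 CPM in 2iL and ran from 3.88 to 117 CPM in 96 h + 2iL. Experiment 3 already differed at 96 h, before 2iL was returned. Its neural sum there was 334 CPM, against 157, 104 and 150 CPM in experiments 1, 2 and 4. Its stem cell sum was 451 CPM, against 766, 720 and 689 CPM. That sum includes Utf1, which ran from 69.9 to 334 CPM over the 96 h libraries. Utf1 averaged 63.1 CPM in 2iL and 532 CPM at 48 h, and its part in the lower sum of experiment 3 was not tested. Markers of primitive and visceral endoderm, tissues that express Lefty1 in the embryo, summed to 2.35 to 20.4 CPM over the 7 groups, and Afp and Ttr had 0 counts in every library. The trophoblast list ranged from 10.9 to 201 CPM and the fibroblast list from 97.7 to 432 CPM. Of the trophoblast list, Tfap2c averaged 91.2 CPM in 2iL and Cdx2 95.6 CPM in 96 h + 2iL. Elf5 and Plac1 averaged at most 0.124 and 0.103 CPM in any group. Of the fibroblast list, Col1a1 and Col1a2 averaged 70.0 and 133 CPM in 2iL, and Lum and Twist2 0.849 and 0.475 CPM. A list of 8 WNT targets, relevant because 2iL holds a GSK3 inhibitor, summed to 252 to 401 CPM in 2iL and 111 to 183.7 CPM at 24 h. It summed to 819 to 2611 CPM at 120 h, without 2iL, and 1350 to 2472 CPM in 96 h + 2iL. Ccnd2 made up most of both late sums, with means of 1190 and 1257 CPM against 58.9 CPM in 2iL. Axin2 averaged 49.4 CPM in 2iL, 36.0 CPM at 120 h and 61.0 CPM in 96 h + 2iL. Sp5 averaged 114, 31.7 and 133 CPM in the same groups. In bulk RNA, fewer cells expressing a gene and less RNA per cell cannot be told apart. No source used here says whether the experiments were separate cultures, so p-values measure the spread between these libraries.

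The ligand and its co-receptor declined during withdrawal, most clearly from 96 h. Levels below are CPM after TMM scaling, given in the order of experiments 1 to 4. Nodal was at 36.1, 23.1, 28.1 and 33.4 CPM in 2iL, at 21.8, 16.4, 22.6 and 26.1 CPM at 24 h and at 17, 13.8, 7.90 and 19.5 CPM at 48 h. It then stood at 7.31, 3.22, 3.04 and 2.83 CPM at 96 h and at 4.09, 1.48, 1.35 and 9.78 CPM at 120 h. The 24 h libraries overlapped those in 2iL, but each was below the 2iL library of its experiment, at 0.604 to 0.805 times. All 48 h libraries were below all 2iL libraries, and all 96 h libraries were below all 48 h libraries. The fitted log2 fold change of Nodal against 2iL was -0.48 ± 0.44 (SE) at 24 h (edgeR quasi-likelihood test, adjusted p = 0.533) and -1.04 ± 0.45 at 48 h (adjusted p = 0.0844). With the experiment as a block, the 48 h value was -1.10 with an adjusted p of 0.0333. Nodal fell at 96 h, by 2.87 ± 0.51 on the log2 scale (edgeR, adjusted p = 2.57e-05), and was below 2iL at 120 h (-2.82 ± 0.51, adjusted p = 2.55e-05). Without the 120 h library of experiment 4, the highest of its group, the 120 h value was -3.61 (adjusted p = 5.24e-06). From 96 to 120 h the difference was 0.06 (adjusted p = 0.979), and -0.74 without that library (adjusted p = 0.693). In the other 3 experiments the 120 h level was 0.443 to 0.559 times that at 96 h. Between 48 and 96 h it fell by 1.83 ± 0.53 (adjusted p = 0.0127), a call that was lost without experiment 2 (-1.77, adjusted p = 0.0572) or experiment 4 (-1.53, adjusted p = 0.107).

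Tdgf1 was also lower late in withdrawal. Its levels were 147, 131, 88.7 and 149 CPM in 2iL and 98.0, 108, 124 and 145 CPM at 24 h, and these ranges overlapped. They were 61.9, 40.3, 47.4 and 89.7 CPM at 48 h, 18.7, 17.3, 6.51 and 13.3 CPM at 96 h, and 6.69, 6.93, 10.3 and 4.45 CPM at 120 h. Every library at 96 h lay below every library at 48 h, and the 96 h and 120 h groups overlapped. The log2 fold change against 2iL was -0.12 ± 0.34 at 24 h (edgeR, adjusted p = 0.87), -1.11 ± 0.36 at 48 h (adjusted p = 0.0178), -3.20 ± 0.40 at 96 h (adjusted p = 9.34e-08) and -4.17 ± 0.44 at 120 h (adjusted p = 2.38e-09). By 120 h Tdgf1 had fallen 18-fold. The 48 h call was lost with DESeq2 (adjusted p = 0.0607), without the 48 h library of experiment 2 (adjusted p = 0.0659) or of experiment 3 (adjusted p = 0.0562), and without the whole of experiment 1 (adjusted p = 0.0664) or 2 (adjusted p = 0.124). From 24 to 48 h the difference was -0.99 ± 0.36 (adjusted p = 0.0952), and -1.03 with the experiment as a block (adjusted p = 0.0335). From 48 to 96 h Tdgf1 fell by 2.09 ± 0.41 (adjusted p = 0.000356). The stem cell marker list summed to 1373 to 1461 CPM at 24 h, 999 to 1197 CPM at 48 h and 451 to 766 CPM at 96 h. In 48 h + 2iL it was at 1071 to 1290 CPM, overlapping 2iL. The list includes Utf1, whose mean went from 63.1 CPM in 2iL to 532 CPM at 48 h. The part of this list in the values of Nodal and Tdgf1 was not tested.

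The LEFTY genes, which encode secreted antagonists that block NODAL at its receptor complex, had reached their low level by the earliest time sampled. Lefty2 was at 39.9, 219.7, 52.0 and 269 CPM in 2iL, with experiments 2 and 4 well above experiments 1 and 3. At 24 h it was at 7.87, 5.63, 12.5 and 8.26 CPM, so that no library reached the lowest 2iL library. Lefty2 fell by 4.09 ± 0.60 on the log2 scale at 24 h (17-fold, edgeR, adjusted p = 7.56e-06), with 4 of 4 experiments lower. The mesendoderm list was lower at 24 h as well, at 0.688 to 6.27 CPM against 24.05 to 35.05 CPM in 2iL with no overlap. T had the highest mean of that list in 2iL, 19.4 CPM, against 0.117 CPM at 24 h. The WNT target list was at 111 to 183.7 CPM at 24 h against 252 to 401 CPM in 2iL. Of its genes, Sp5 and Axin2 averaged 114 and 49.4 CPM in 2iL and 2.38 and 5.63 CPM at 24 h. Lef1 averaged 56.5 and 55.8 CPM in these groups, and Ccnd2 58.9 and 74.6 CPM. The part of both lists in the values of Lefty2, Lefty1 and Smad7 was not tested. Lefty2 was at 8.26, 5.90, 4.25 and 10.4 CPM at 48 h, 12.8, 12.5, 7.81 and 11.7 CPM at 96 h and 11.5, 5.44, 7.17 and 11.6 CPM at 120 h. These 4 withdrawal groups overlapped each other, and each was below 2iL (log2 fold changes of -4.32 ± 0.61, -3.68 ± 0.55 and -3.99 ± 0.57 at 48, 96 and 120 h, adjusted p at most 2.03e-06).

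Lefty1 had the same split between experiments in 2iL, at 5.77, 32.9, 13.5 and 39.0 CPM. At 24 h it was at 1.82, 2.82, 3.14 and 4.13 CPM and at 48 h at 2.58, 1.47, 1.22 and 3.66 CPM. Lefty1 fell by 2.91 ± 0.67 at 24 h (edgeR, adjusted p = 0.00244) and was 3.31 ± 0.70 below 2iL at 48 h (adjusted p = 0.000443), with no overlap between groups. Levels of 5.02, 6.84, 1.30 and 4.85 CPM at 96 h and of 8.17, 4.95, 4.04 and 7.56 CPM at 120 h overlapped the 2iL range, whose lowest library was experiment 1. The fall against 2iL was 2.30 ± 0.59 at 96 h (adjusted p = 0.00197) and 1.84 ± 0.56 at 120 h (adjusted p = 0.0076), where 3 of 4 experiments were lower. The 120 h call was lost without experiment 2 (-1.51, adjusted p = 0.0826) or experiment 4 (-1.58, adjusted p = 0.0641). A 24 h library held 3 to 6 counts of Lefty1, so its levels in withdrawn cells are imprecise. Of 451 windows of 50 bases in the last 500 bases of the Lefty1 transcript, 11 (2.44%) also occur in Lefty2. No such shared window was found for the other 5 genes.

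Smad7 (chr18:75367529-75395935, + strand), which encodes an intracellular protein that blocks activated receptors, had a time course close to that of the LEFTY genes. It was at 27.9, 47.9, 29.9 and 71.2 CPM in 2iL, at 7.26, 3.75, 8.15 and 7.57 CPM at 24 h and at 5.16, 2.95, 2.43 and 0.610 CPM at 48 h. At 96 h the levels were 5.94, 7.24, 0.868 and 3.23 CPM and at 120 h 7.80, 10.4, 3.59 and 3.56 CPM. All 16 withdrawn libraries were below all 4 libraries in 2iL. Smad7 fell by 2.74 ± 0.44 at 24 h (edgeR, adjusted p = 2.69e-05), and the log2 fold change against 2iL was -3.91 ± 0.49 at 48 h (adjusted p = 1.57e-07), -3.33 ± 0.44 at 96 h (adjusted p = 2.5e-07) and -2.79 ± 0.42 at 120 h (adjusted p = 1.79e-06).

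Skil, which encodes the SMAD co-repressor SnoN, went the opposite way. In 2iL it was at 4.33, 16.2, 4.49 and 15.3 CPM, again lower in experiments 1 and 3. At 24 h it was at 14.5, 15, 25.7 and 17.9 CPM and at 48 h at 32.5, 29.5, 48.6 and 51.9 CPM, the highest group mean of the 7 (40.6 ± 11.3 CPM, SD, n = 4). All 48 h libraries were above all 24 h and all 2iL libraries. It was then at 46.6, 35.8, 15.6 and 33.9 CPM at 96 h and at 23.8, 19.3, 15.2 and 14.7 CPM at 120 h. Against 2iL the log2 fold change was 0.87 ± 0.38 at 24 h (edgeR, adjusted p = 0.119), 2.02 ± 0.36 at 48 h (adjusted p = 5.32e-05), 1.73 ± 0.36 at 96 h (adjusted p = 0.000203) and 0.88 ± 0.37 at 120 h (adjusted p = 0.0487). Skil rose by 1.15 ± 0.35 from 24 to 48 h (adjusted p = 0.0388), and the difference from 96 to 120 h was -0.85 ± 0.33 (adjusted p = 0.19), called only without the 96 h library of experiment 3 (-1.07, adjusted p = 0.0419) or without the filter (adjusted p = 0.0451). The 24 h value was called without the 2iL library of experiment 2 (1.24, adjusted p = 0.044). The rise from 24 to 48 h was lost without any 1 of 6 libraries, the 24 h libraries of experiments 1, 2 and 4 and the 48 h libraries of experiments 1, 3 and 4 (log2 fold changes of 1.00 to 1.23, adjusted p of 0.0512 to 0.116). At 120 h the call was lost without the 2iL library of experiment 1 or 3 (adjusted p of 0.177 and 0.179), without the 120 h library of experiment 1 or 2 (adjusted p of 0.132 and 0.0822), and without the whole of experiment 1 (0.475, adjusted p = 0.362) or 3 (0.690, adjusted p = 0.104).

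**Figure D1:**
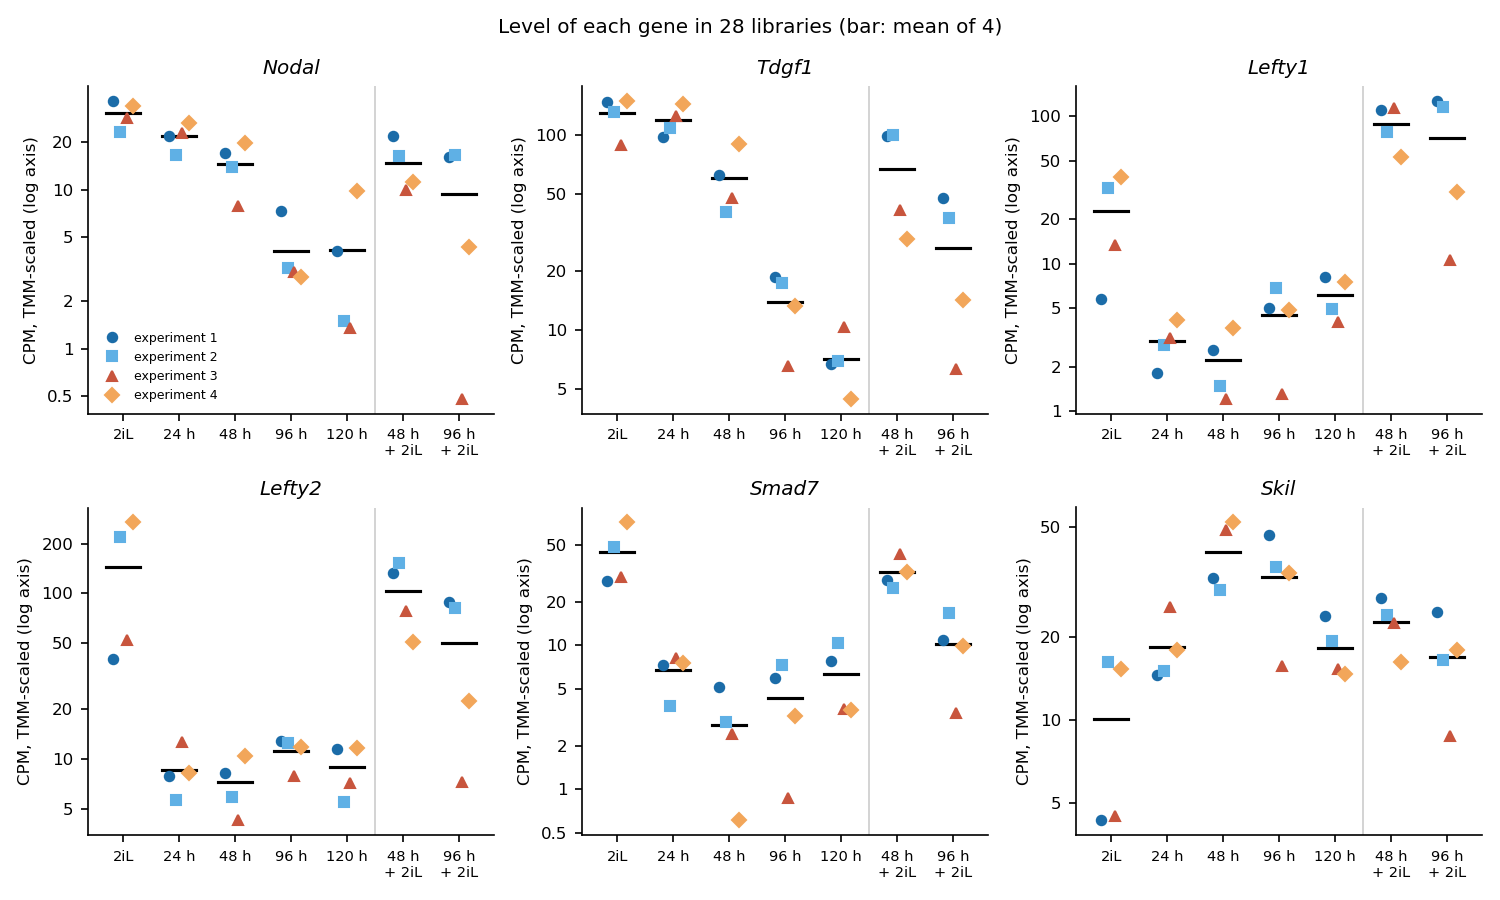
Level of each of the 6 genes in every library (CPM after TMM scaling, log axis) by group, with points for experiments 1 to 4 and a bar for the group mean. Nodal and Tdgf1 overlap their 2iL levels at 24 h, Lefty1, Lefty2 and Smad7 are low from 24 h and high again in 48 h + 2iL, and Skil is highest at 48 h.

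Against 2iL, 3 of the 6 genes fell at 24 h and none rose, where 16% of all 11080 genes were called and 8.29% fell. The 48 h count was 4 fallen and 1 risen, where 27.8% of all genes were called, 13.2% fallen and 14.6% risen. At 96 h 5 fell and 1 rose (41.1% called, 19.2% fallen and 21.9% risen), and at 120 h 5 fell and 1 rose (47.3% called, 22.6% fallen and 24.6% risen). The median log2 fold change of the 6 genes was -1.61 at 24 h and -3.04 at 96 h, beside 0.01 and 0.02 over all genes tested. Between neighbouring times, 1 gene rose from 24 to 48 h (6.57% of all genes called, 3.47% risen), and 2 were called with the experiment as a block. From 48 to 96 h 2 genes fell (21.4% of all genes called, 9.92% fallen). From 96 to 120 h edgeR called 0 of 6 (1.14% of all genes), with 1 gene at an unadjusted p under 0.05 and 0 called by DESeq2. The comparisons with 2iL share its 4 libraries, so they are not independent of each other.

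**Figure D2:**
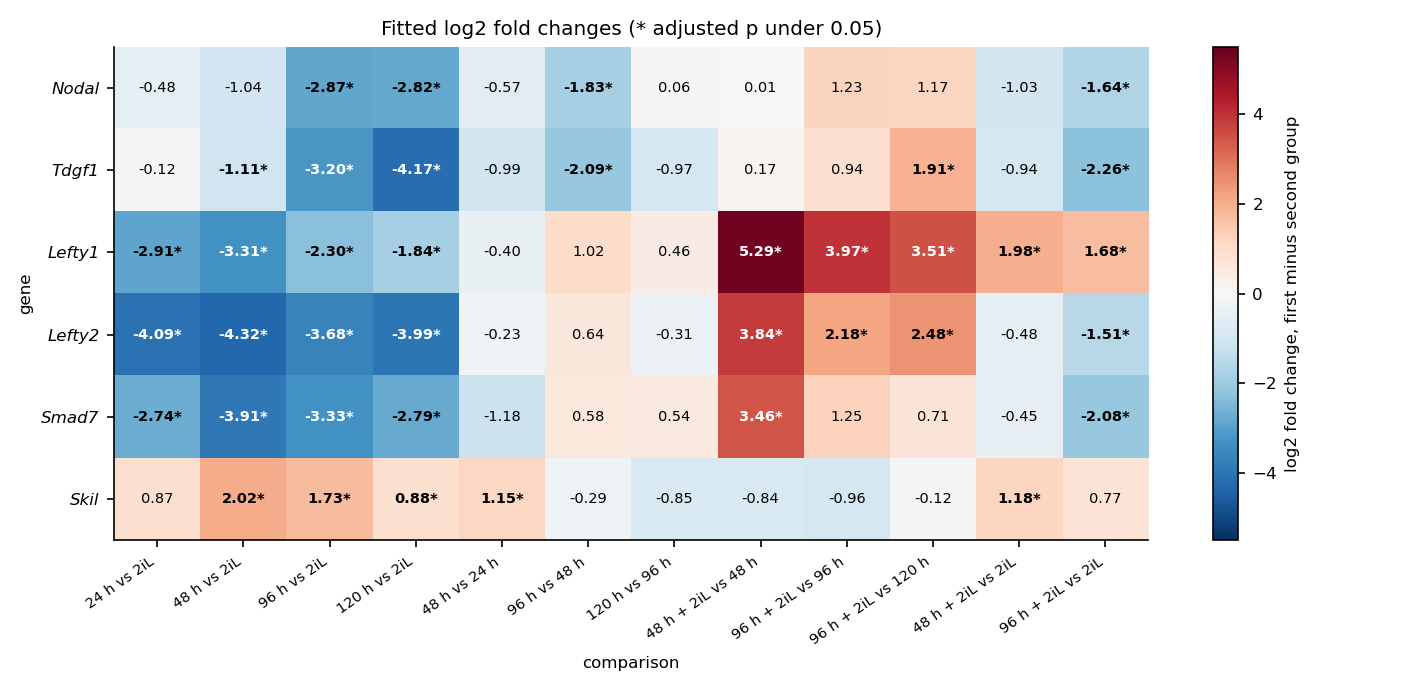
Fitted log2 fold change of each gene (rows) in each of 12 comparisons of groups (columns), from blue for lower to red for higher in the group named before "vs". Asterisks mark an adjusted p under 0.05. The first column has values of -2.91, -4.09 and -2.74 for Lefty1, Lefty2 and Smad7 beside -0.48 and -0.12 for Nodal and Tdgf1.

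With 2iL returned for 24 h after 48 h of withdrawal, the 3 inhibitors that had fallen at 24 h were higher, and the ligand and co-receptor showed no called change. Lefty1 reached 110.2, 78.3, 114 and 52.8 CPM in 48 h + 2iL, between 14.4 and 93.9 times the 48 h library of the same experiment. Its log2 fold change of 5.29 ± 0.65 (39.2-fold, edgeR, adjusted p = 3.83e-07) was the largest among the 6 genes in any of the 12 comparisons of groups. Each 48 h library held 2 to 6 counts of Lefty1, so the size of these folds is imprecise. Lefty2 reached 132, 154, 77.8 and 51.0 CPM (3.84 ± 0.61, adjusted p = 2.48e-05) and Smad7 reached 28.2, 25.1, 43.0 and 32.0 CPM (3.46 ± 0.49, adjusted p = 4.74e-06). For these 3 genes every library with returned 2iL was above every 48 h library.

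Nodal stood at 21.6, 16.3, 9.93 and 11.1 CPM in 48 h + 2iL, within the 48 h range but for experiment 1 (0.01 ± 0.47, edgeR, adjusted p = 0.993). Tdgf1 stood at 99.2, 99.2, 41.0 and 29.2 CPM, higher than at 48 h in experiments 1 and 2 and lower in experiments 3 and 4 (0.17 ± 0.36, adjusted p = 0.82). Skil stood at 27.7, 23.9, 22.3 and 16.2 CPM, below the 48 h library in 4 of 4 experiments (-0.84 ± 0.33, adjusted p = 0.0853). The 3 of 6 genes called, all upward, compare with 14.9% of all genes called and 7.24% risen. The WNT target list summed to 406 to 786 CPM in 48 h + 2iL against 205 to 266 CPM at 48 h. Lef1 and Ccnd2 made up most of this sum at 48 h, with means of 148 and 72.5 CPM. They averaged 119 and 137 CPM in 48 h + 2iL. Sp5 averaged 1.85 CPM at 48 h and 172 CPM in 48 h + 2iL, and Axin2 4.20 and 57.4 CPM. The mesendoderm list summed to 63.2 to 151 CPM in 48 h + 2iL against 0.610 to 6.19 CPM at 48 h. T made up most of it in 48 h + 2iL, with a mean of 77.0 CPM against 0.662 CPM at 48 h. The part of both lists in these results was not tested. No group withdrawn for the same total time as 48 h + 2iL is among these libraries, so the 24 h that passed cannot be told apart from the returned 2iL.

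After 96 h of withdrawal the response was divided by experiment. Lefty1 reached 128, 117, 10.7 and 30.9 CPM in 96 h + 2iL, which was 25.4, 17, 8.18 and 6.38 times the 96 h library of the same experiment. Lefty2 reached 88.8, 82.1, 7.27 and 22.2 CPM, which was 6.95, 6.58, 0.930 and 1.90 times its 96 h level. Lefty1 rose by 3.97 ± 0.56 (edgeR, adjusted p = 1.12e-05) with no overlap between groups, and Lefty2 by 2.18 ± 0.56 (adjusted p = 0.0104) with overlap, experiment 3 showing no increase. The Lefty2 call was lost without experiment 1 (1.83, adjusted p = 0.0894) or experiment 2 (1.88, adjusted p = 0.134).

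Smad7 was at 10.9, 16.8, 3.39 and 9.89 CPM in 96 h + 2iL, higher than at 96 h in 4 of 4 experiments, yet its log2 fold change of 1.25 ± 0.48 missed the threshold (edgeR, adjusted p = 0.1). Nodal was at 16.1, 16.4, 0.485 and 4.33 CPM, the third value resting on 1 count (1.23 ± 0.55, adjusted p = 0.164). Tdgf1 was at 47.3, 37.4, 6.30 and 14.2 CPM (0.94 ± 0.43, adjusted p = 0.179). In Nodal and Tdgf1 the libraries of experiments 1 and 2 were at least 2.16 times their 96 h level, and those of experiment 3 were at 0.159 and 0.967 times. Skil was at 24.6, 16.4, 8.72 and 17.9 CPM, lower than at 96 h in 4 of 4 experiments (-0.96 ± 0.34, adjusted p = 0.0718). Thus 2 of 6 genes were called, both risen, against 9.24% of all genes called and 4.02% risen. Without the 96 h + 2iL library of experiment 3, Nodal (1.63, adjusted p = 0.0281), Tdgf1 (1.26, adjusted p = 0.0404) and Smad7 (1.54, adjusted p = 0.0347) were called as well. Without that of experiment 4 they were not (1.45, 1.13 and 1.28, adjusted p of 0.125, 0.129 and 0.14). Skil was called as lower without the 96 h library of experiment 3 (-1.18, adjusted p = 0.0151) and without the 96 h + 2iL library of experiment 1 (-1.19, adjusted p = 0.04). The library of experiment 3 is also the one with the highest neural marker sum, as was already so at 96 h. The part of that sum in these values was not tested.

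**Figure D3:**
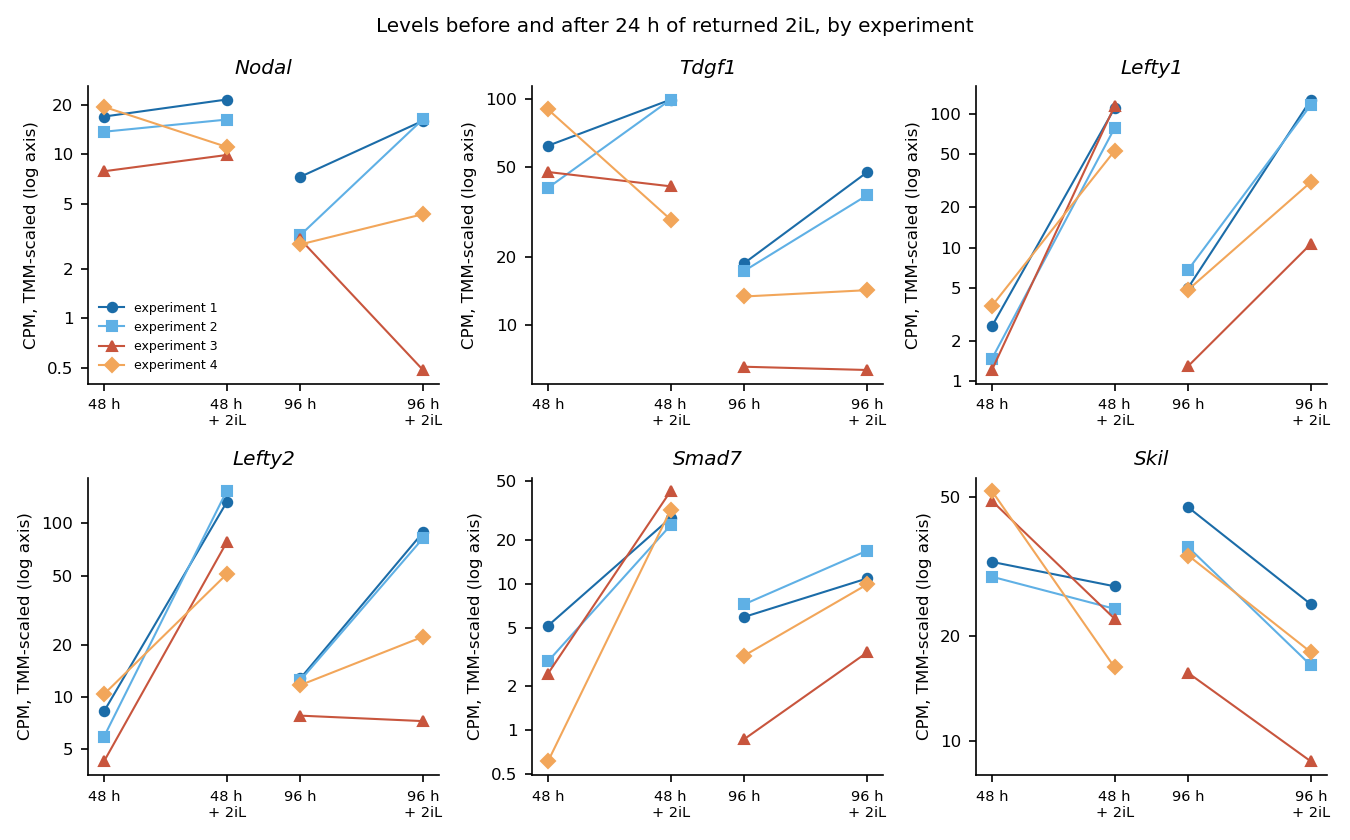
Level of each gene before and after 24 h of returned 2iL (CPM after TMM scaling, log axes), with 1 line per experiment, for withdrawal of 48 h (left pair) and 96 h (right pair). Lefty1 and Smad7 go up in 4 of 4 experiments in both pairs, and Nodal in experiment 3 goes from 3.04 to 0.485 CPM in the right pair.

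Cells in 96 h + 2iL were collected at the same total time as the 120 h group, which allows a comparison at equal age. Lefty1 was higher by 3.51 ± 0.54 (edgeR, adjusted p = 0.000137), Lefty2 by 2.48 ± 0.58 (adjusted p = 0.0112) and Tdgf1 by 1.91 ± 0.47 (adjusted p = 0.0187) with returned 2iL. These are 3 of 6 genes, all risen, beside 2.63% of all genes called and 1.28% risen. Nodal (1.17 ± 0.54, adjusted p = 0.336), Smad7 (0.71 ± 0.46, adjusted p = 0.565) and Skil (-0.12 ± 0.35, adjusted p = 0.939) were not called. The calls of Lefty2 and Tdgf1 were lost without the 96 h + 2iL library of experiment 1 (adjusted p of 0.0708 and 0.142) or 2 (0.0717 and 0.102), and without the 120 h library of experiment 2 (0.0509 and 0.0549). That of Tdgf1 was also lost without the 120 h library of experiment 1 (adjusted p = 0.0578) or 4 (adjusted p = 0.073), and in a fit of the compared groups only both were lost (0.0699 and 0.103).

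Set against cells never withdrawn, the 6 genes returned to different degrees. In 48 h + 2iL, Lefty1 was above 2iL in 4 of 4 experiments by 1.98 ± 0.47 (edgeR, adjusted p = 0.00466), at 19.1, 2.38, 8.48 and 1.35 times the 2iL library of the same experiment. Experiments 1 and 3, which gave the largest ratios, were those with the lowest Lefty1 in 2iL, and without experiment 1 the call was lost (1.54, adjusted p = 0.0651). Lefty2 (-0.48 ± 0.46, adjusted p = 0.578) and Smad7 (-0.45 ± 0.37, adjusted p = 0.492) overlapped their 2iL levels. Skil was above 2iL by 1.18 ± 0.37 (adjusted p = 0.031), a call lost without the 2iL library of experiment 1 or 3 (adjusted p of 0.113 and 0.126) or without the 48 h + 2iL library of experiment 1, 2 or 3 (adjusted p of 0.0812, 0.0562 and 0.0636). Nodal was below 2iL in 4 of 4 experiments with no overlap (-1.03 ± 0.44, adjusted p = 0.133). Tdgf1 was lower in 4 of 4 as well (-0.94 ± 0.35, adjusted p = 0.0767), and the difference was called with the experiment as a block (-0.98, adjusted p = 0.0239). So 2 of 6 genes were called, both risen, with 11.6% of all genes called and 6.14% risen.

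In 96 h + 2iL, 4 of 6 genes were lower and 1 higher than in 2iL, with 41% of all genes called, 19.5% fallen and 21.4% risen. Nodal (-1.64 ± 0.46, edgeR, adjusted p = 0.00475), Tdgf1 (-2.26 ± 0.38, adjusted p = 1.21e-05) and Smad7 (-2.08 ± 0.40, adjusted p = 9.27e-05) were lower with no overlap between groups. Lefty2 was lower by 1.51 ± 0.48 (adjusted p = 0.0116) in 3 of 4 experiments, a call lost without the 2iL library of experiment 2 (-1.24, adjusted p = 0.0543) or 4 (-1.05, adjusted p = 0.0916), without the whole of experiment 4 (-0.81, adjusted p = 0.276) and in a fit of these groups only (adjusted p = 0.0806). Lefty1 was called as higher (1.68 ± 0.47, adjusted p = 0.00458) although only 2 of 4 experiments were higher, with ratios of 22.1, 3.54, 0.792 and 0.792. Without experiment 1 its value was 0.93 (adjusted p = 0.168). Skil was not called (0.77 ± 0.38, adjusted p = 0.102), but was without the 2iL library of experiment 2 (1.12, adjusted p = 0.0297) or the 96 h + 2iL library of experiment 3 (0.985, adjusted p = 0.0406).

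Whether the response to returned 2iL depended on the time of withdrawal was tested as the response after 96 h minus that after 48 h. Smad7 had the largest difference of the 6, -2.21 ± 0.71 (edgeR, unadjusted p = 0.00379, adjusted p = 0.146). Lefty2 differed by -1.67 ± 0.85 (adjusted p = 0.472), Lefty1 by -1.32 ± 0.95 (adjusted p = 0.664), Nodal by 1.22 ± 0.72 (adjusted p = 0.564), Tdgf1 by 0.77 ± 0.56 (adjusted p = 0.666) and Skil by -0.12 ± 0.47 (adjusted p = 0.96). The edgeR count was 0 of 6 (0.921% of all genes), with 1 gene at an unadjusted p under 0.05 and 0 called by DESeq2.

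The order of mean levels over the 7 groups differed between the genes. Nodal and Tdgf1 were highest in 2iL and second at 24 h. Nodal was lowest at 96 h (4.10 ± 2.15 CPM, SD, n = 4) and Tdgf1 at 120 h (7.09 ± 2.42 CPM). Lefty1 was highest in 48 h + 2iL (88.9 ± 28.9 CPM) and 96 h + 2iL (71.4 ± 59.3 CPM), ahead of 2iL (22.8 ± 15.7 CPM). Lefty2 and Smad7 were highest in 2iL (145 ± 116 and 44.2 ± 20.1 CPM) and second in 48 h + 2iL (103.7 ± 47.5 and 32.1 ± 7.82 CPM). Skil was highest at 48 h and lowest in 2iL. Of the 36 pairs of neighbours in these orders, 35 overlapped between their libraries. The exception was Smad7 between 48 h + 2iL and 96 h + 2iL.

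Of 51 other genes of the NODAL and activin pathway, 36 passed the filter. Against 2iL, 1 rose and 5 fell at 24 h, which is 16.7% of the 36 beside 16% of all genes called. At 48 h 3 rose and 6 fell (25% beside 27.8%), at 96 h 7 rose and 6 fell (36.1% beside 41.1%) and at 120 h 13 rose and 6 fell (52.8% beside 47.3%). These shares are near those of all genes. Their median log2 fold change was -0.23 at 48 h and 0.25 at 120 h, beside 0.02 and 0.01 over all genes. Genes with 3 or fewer counts in a group have no interpretable fold, and without the 2 such genes these medians were -0.23 and 0.22. With 2iL returned, 7 rose and 2 fell after 48 h (25% of the 36 beside 14.9% of all genes called), and 5 rose and 2 fell after 96 h (19.4% beside 9.24%).

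Among ligands and their processing enzymes, Pcsk6 and Furin, which encode convertases that cleave the NODAL precursor, fell at 24 h along with the LEFTY genes. Pcsk6 went from 31.1 ± 2.94 CPM in 2iL to 10.7 ± 0.705 CPM at 24 h and 5.51 ± 1.62 CPM at 48 h, and to 24.4 ± 2.99 CPM in 48 h + 2iL. Its log2 fold change was -1.53 ± 0.26 at 24 h (edgeR, adjusted p = 7.08e-05) and 2.13 ± 0.28 on return (adjusted p = 1.56e-06). After 96 h it was at 4.43 ± 0.635 CPM before and 5.58 ± 2.62 CPM after returned 2iL. Furin fell by 1.17 ± 0.22 at 24 h (adjusted p = 0.00023) and rose by 0.76 ± 0.21 in 48 h + 2iL (adjusted p = 0.0138), a call lost without the filter (adjusted p = 0.0557) and without experiment 2 (adjusted p = 0.0771) or 4 (adjusted p = 0.103). Unlike Pcsk6 and the LEFTY genes, it did not stay low in withdrawal. Furin was at 26.3 ± 5.10 CPM in 2iL, 27.1 ± 6.46 CPM at 96 h and 33.4 ± 4.24 CPM at 120 h. Gdf3, a NODAL-related ligand, was at 121 ± 20.9 CPM in 2iL and 118 ± 20.2 CPM at 48 h, and had fallen to 12.6 ± 7.69 CPM at 120 h (-3.23 ± 0.41, adjusted p = 7.01e-08). Gdf11, another ligand that uses activin receptors, rose from 4.67 ± 2.82 to 21.3 ± 5.16 CPM at 120 h (2.22 ± 0.46, adjusted p = 0.000157).

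Of 5 receptors measured, Acvr2b, a type II activin receptor that binds NODAL, rose from 50.4 ± 14.1 CPM in 2iL to 179 ± 35.7 CPM at 120 h (1.84 ± 0.21, edgeR, adjusted p = 8.72e-09). Tgfbr3, the co-receptor betaglycan, rose from 2.06 ± 1.11 to 13.1 ± 4.78 CPM when 2iL was returned after 48 h (2.63 ± 0.62, adjusted p = 0.00283). Among 6 SMADs and partners, Zfyve9, which anchors SMADs at receptors, rose by 1.30 ± 0.24 at 120 h (adjusted p = 3.1e-05), as did Smad3 (0.83 ± 0.30, adjusted p = 0.0226) and Smad4 (0.73 ± 0.15, adjusted p = 0.000128). The Smad3 call was lost without the 2iL library of experiment 2 (0.67, adjusted p = 0.0914) or 4 (0.70, adjusted p = 0.079) and without the 120 h library of experiment 3 (0.55, adjusted p = 0.152), and without the whole of experiment 2 (adjusted p = 0.112) or 4 (adjusted p = 0.126). Among the other inhibitors, Fst, the secreted activin-binding protein follistatin, was at 7.34 ± 2.79 CPM in 2iL, 6.48 ± 1.93 CPM at 48 h and 39.5 ± 11.9 CPM in 48 h + 2iL. Like Lefty1 it rose above its 2iL level there (2.40 ± 0.48, adjusted p = 0.000938). Pmepa1, which sequesters SMADs, fell by 1.67 ± 0.34 at 48 h (adjusted p = 0.000262). Of the targets, Nanog, a pluripotency factor, fell from 147 ± 23 CPM in 2iL to 37.7 ± 12.5 CPM at 24 h and rose to 115 ± 32.2 CPM in 48 h + 2iL. Otx2, a factor of primed pluripotency and anterior neural tissue, ran opposite to the LEFTY genes. It was at 13.4 ± 5.65 CPM in 2iL, 343 ± 47.3 CPM at 48 h and 7.58 ± 0.783 CPM in 48 h + 2iL.

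**Figure D4:**
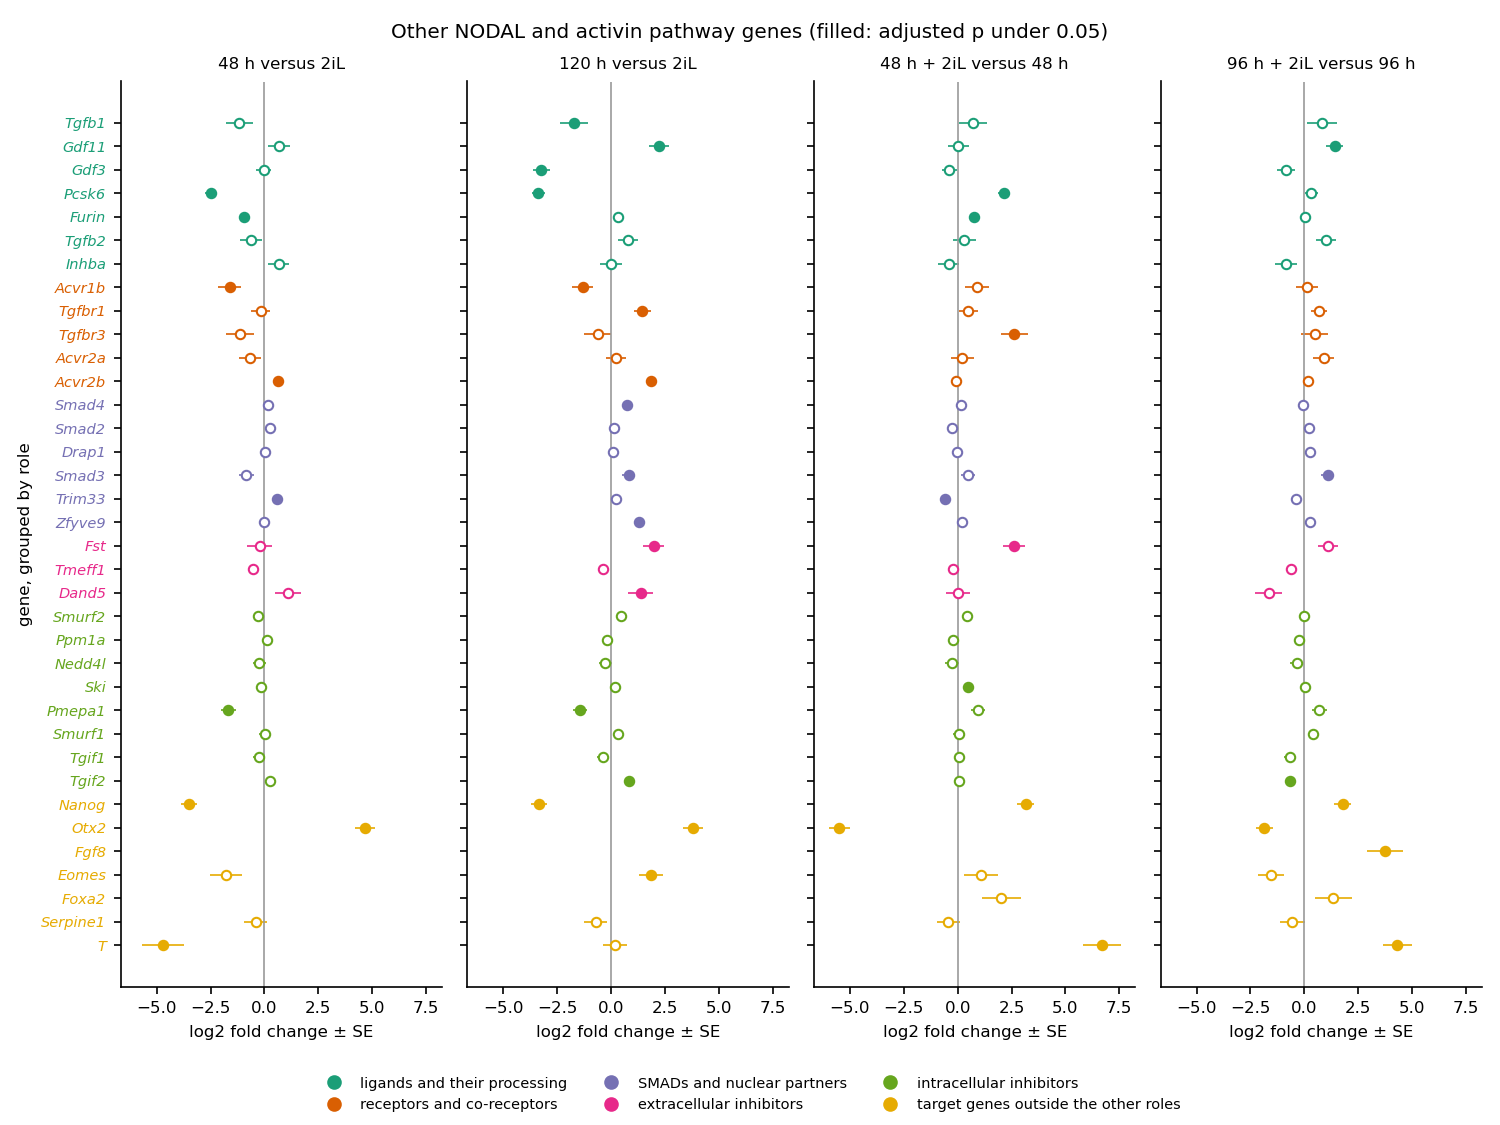
Fitted log2 fold change ± SE of the 36 other pathway genes, coloured by role, in 4 comparisons, with filled points for an adjusted p under 0.05 and no point where a group held 3 or fewer counts. Pcsk6 lies at -2.48 at 48 h and 2.13 with 2iL returned after 48 h, and Otx2 at 4.66 and -5.49.

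As a description over 28 libraries, which share groups and experiments, log2 CPM of Nodal and Tdgf1 correlated with a Pearson r of 0.884. The r of Lefty1 with Lefty2 was 0.864, that of Lefty2 with Smad7 0.851 and that of Lefty1 with Smad7 0.729. Lefty1 and Nodal had an r of 0.213. Skil had values between -0.39 and -0.07 with the other 5. Among 7664 genes, those most like Nodal were Lamc1 (0.915), Dennd2c (0.913) and AU018091 (0.895), and those most like Tdgf1 were AU018091 (0.962), Spp1 (0.952) and Gpx1 (0.952). Those nearest to Lefty1 were Uap1l1 (0.895) and Cdkn1a (0.893), and those nearest to Lefty2 were Cdkn1a (0.898), Renbp (0.893) and Ap3d1 (0.882). Smad7 was followed by Ptbp3 (0.888), Renbp (0.869) and Chm (0.862), and Skil by Paox (0.818), Dnmt3a (0.803) and Gstt2 (0.786).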

How the data were processed

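Polyadenylated RNA of E14 cells was sequenced from its 3′ ends in 28 libraries. Per the submitters' processing notes, bcl2fastq, STAR 2.6.0a, HTSeq and the mm10 build were used, with no role or order given. The authors deposited raw counts per gene for each library and 1 table of CPM, which equals the counts scaled to a common total. Reads without a unique position (52.3% to 60.1% of a count file), in no gene (6.68% to 8.58%) or in overlapping genes (0.183% to 0.227%) were left out of library sizes. Per the deposited file names the counts are unique, and whether this means molecules is not given in the sources used here.

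Counts were filtered with filterByExpr (minimum count 10, minimum total 15, groups as design), scaled by TMM and fitted with a mean per group over all 28 libraries by edgeR's quasi-likelihood method (edgeR 4.0.16, R 4.3.3). The tests were two-sided, with Benjamini-Hochberg adjustment over 11080 genes and a threshold of 0.05, and "called" means past it. The SE is the log2 fold change divided by the root of F, so it is approximate. Levels are TMM-scaled CPM from the counts, with SD over 4 libraries. Correlations used log2 CPM with a prior count of 2 and genes of a mean of at least 10 CPM. The scripts were tested on simulated data. The members and lists were chosen with earlier results of these data known. The 6 genes are named in every comparison, and other pathway genes are up to 4 called ones of largest change per role and comparison, with levels at other times beside them. Some genes that these rules cover are not reported here. Marker lists covered stem cell, neural, mesendoderm, endoderm, trophoblast, fibroblast and WNT target genes.

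The experiment number pairs libraries, since each title gives a shared experiment. Deviations from group means correlated at 0.104 on average within a number and -0.0339 between numbers. Alternatives were DESeq2 1.42.0 and its size factors, library totals, no filter, the experiment as a block, a fit of only the groups compared and leaving out each library. Leaving out each experiment was added after seeing the data. Replicates differed by more than sampling noise in 42 of 42 pairs (chi-square per gene of 2.48 to 11.4).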

Additional observations from a re-analysis of the deposited data

Results flagged for a closer look

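Nodal in the 96 h library of experiment 1 was at 7.31 CPM, apart from the other 3 libraries of its group at 2.83 to 3.22 CPM. The gap was 0.912 of the group's range, above Dixon's 95% critical value for 4 samples. It was the only such library among 42 groups of 4 values tested, where chance gives about 1 in 20.

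The response of Pcsk6, the NODAL convertase, to returned 2iL was smaller after 96 h than after 48 h of withdrawal, by 1.81 ± 0.43 on the log2 scale (-1.81, edgeR, adjusted p = 0.0323). The call was lost without any 1 of these libraries: 48 h + 2iL of experiments 1 and 2, and 48 h, 96 h and 96 h + 2iL of experiments 2, 3 and 4 (-1.81 to -1.64, adjusted p of 0.0566 to 0.0773). It was also lost without the filter on low counts (adjusted p = 0.0662), in a fit of the 4 groups only (adjusted p = 0.0604) and without the whole of experiment 2 (-1.44, adjusted p = 0.351), 3 (-1.67, adjusted p = 0.191) or 4 (-1.75, adjusted p = 0.259).

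Otx2 differed between the same responses by 3.64 ± 0.63 (edgeR, adjusted p = 0.00224), as its fall with returned 2iL was smaller after 96 h than after 48 h. It was at 281 ± 29.2 CPM at 96 h and 77.8 ± 97.1 CPM in 96 h + 2iL, where the libraries ran from 17.5 to 223 CPM.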

How the results depend on the processing

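The direction of every called result of the 6 genes was kept under every alternative run. Of 1445 pairs of a gene's result and an alternative, 1326 kept their side of the threshold and their sign, 55 lost a call, 35 gained one and 29 changed sign, the last only in results that were not called. Among called results of the other pathway genes, 1555 of 1806 pairs kept the call and 251 lost it. The count of genes called of the 6 moved by 1.5 times or more in these cases. Without the filter on low counts it was 2 from 24 to 48 h, 2 from 96 to 120 h, 6 for 96 h + 2iL against 96 h, 4 for 48 h + 2iL against 2iL and 2 for the difference of responses. In fits of only the groups compared it was 2 from 24 to 48 h, 1 for 96 h + 2iL against 120 h and 4 for 48 h + 2iL against 2iL. With the experiment as a replicate block it was 2 from 24 to 48 h and 3 for 48 h + 2iL against 2iL. Smaller moves were from 5 to 6 at 48 h against 2iL (no filter, block, groups compared only) and to 4 with DESeq2, from 3 to 4 for 48 h + 2iL against 48 h (no filter, groups compared only), from 5 to 6 (no filter) or 4 (groups compared only) for 96 h + 2iL against 2iL, and from 6 to 5 at 120 h against 2iL (groups compared only). The block called Nodal at 48 h against 2iL (adjusted p = 0.0333) and Tdgf1 from 24 to 48 h (0.0335) and in 48 h + 2iL against 2iL (0.0239), and changed no other call of the 6. Without the filter, 900 of 21039 genes were called from 24 to 48 h, against 728 of 11080 with it. Calls of the 6 gained without the filter had lower p-values at nearly the same log2 fold change. Tdgf1 from 24 to 48 h went from -0.9896 to -0.9974 (edgeR, adjusted p of 0.0952 and 9.64e-06). Lefty2 for the difference of responses went from -1.666 to -1.691 (adjusted p of 0.472 and 0.000232). The cause was not tested.

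Leaving out 1 library or 1 experiment gave counts of 0 to 1 from 24 to 48 h, 1 to 2 from 48 to 96 h, 0 to 1 from 96 to 120 h, 1 to 5 for 96 h + 2iL against 96 h, 1 to 3 for 96 h + 2iL against 120 h and 0 to 2 for 48 h + 2iL against 2iL. Uncalled log2 fold changes that changed sign ran, over these settings, from -0.29 to 0.029 for Tdgf1 at 24 h, -0.46 to 0.17 for Lefty2 from 24 to 48 h, -0.60 to 0.033 for Skil from 48 to 96 h and -0.88 to 0.48 for Nodal from 96 to 120 h. On return after 48 h they ran from -0.21 to 0.29 for Nodal and -0.24 to 0.68 for Tdgf1. For Skil they ran from -0.35 to 0.10 in 96 h + 2iL against 120 h and from -0.40 to 0.10 for the difference of responses, and for Lefty2 from -0.93 to 0.22 in 48 h + 2iL against 2iL. The cause was not tested.

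Scaling by library totals shifted the median of all genes by 0.119 at 120 h against 2iL, and by less than 0.1 in the other comparisons. It changed the share of risen genes among those called from 53.7% to 64.7% from 48 to 96 h, 52.4% to 66.4% from 96 to 120 h and 49.0% to 38.4% for the difference of responses. Counts over all genes differed by over 1.5 times in 3 comparisons when no library was left out. From 96 to 120 h, 126 genes became 653 without the filter, 580 with the block, 275 with DESeq2 and 0 in a fit of those groups only. For the difference of responses, 102 became 321 without the filter and 194 with the block, and for 96 h + 2iL against 120 h 291 became 493 without the filter and 116 in a fit of those groups only. Leaving out 1 library or experiment moved them to 974 to 1773 (from 1770) at 24 h, 359 to 624 (728) from 24 to 48 h, 1258 to 2301 (2376) from 48 to 96 h, 0 to 689 (126) from 96 to 120 h, 942 to 1361 (1651) on return after 48 h and 353 to 1334 (1024) after 96 h. They were 53 to 450 (291) for 96 h + 2iL against 120 h, 611 to 1266 (1288) for 48 h + 2iL against 2iL and 8 to 136 (102) for the difference of responses. Low counts limit Lefty1 and Smad7 in withdrawn cells (1 to 22 counts a library) and Nodal from 96 h.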

Other observations

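Of the 51 other pathway genes, 15 were removed by the filter on low counts. Over all 28 libraries, Cer1, a secreted NODAL inhibitor, had 7 counts, Foxh1, the DNA-binding partner of SMAD2, had 17, and Gdf1, a ligand that pairs with NODAL, had 0. The type I receptor gene Acvr1c had 30 counts and the co-receptor gene Cfc1, a relative of Tdgf1, had 22. The targets Gsc and Mixl1 had 66 and 79 counts, and Tgfbr2, the TGF-beta type II receptor gene, had 147. These genes were left out of the tests. Gsc and Tgfbr2, picked out after their values were seen, were higher in every 2iL library than in every 24 h library. Gsc had 38 counts in 2iL and 1 at 24 h, and Tgfbr2 had 41 and 10.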
